A study of Homo sapiens with 6 samples.

Results

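Interferon-stimulated genes are the genes that cells switch on when interferon reaches them, and here they split the resistant cultures of 2 B cell lymphoma lines: most were high in resistant DAUDI cells and low or at 0 in resistant DOHH2 cells. The members were 44 named genes, and each gene's level was the sum of the FPKM of its isoforms (fragments per kilobase of transcript, scaled to the library's total) in each of 6 libraries. All 44 were in the tables, and 41 reached 1 FPKM in at least 1 library, among 12337 such genes of 23844 named genes in all. The 3 below that level were DDX60, at 0.797 FPKM at most, OASL, at 0.314, and HERC5, at 0.0086. Just above it lay HERC6, at 2.07 FPKM at most, IFITM3, at 2.18, and USP18, at 2.28.

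DAUDI is an established line of Burkitt lymphoma and DOHH2 one of follicular lymphoma, both obtained from ATCC per the labels. Each line gave 3 libraries of polyA RNA, 1 labelled WT, 1 labelled resistant to idelalisib, an inhibitor of the delta form of phosphoinositide 3-kinase, and 1 labelled resistant to ibrutinib, an inhibitor of Bruton's tyrosine kinase. The labels name no altered gene or transgene in any group. How resistance was raised, at which dose, whether a resistant culture is 1 clone, and whether the drug was present at harvest is not given in the sources used here.

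Type I interferons bind a receptor made of IFNAR1 and IFNAR2, whose kinases JAK1 and TYK2 phosphorylate STAT proteins, STAT2 among them. With IRF9 these form a factor that binds the interferon-stimulated response element, a short repeat of GAAA cores in the promoters of many target genes. The products block viral entry, sense or degrade foreign RNA, attach the ubiquitin-like protein ISG15 to other proteins, and feed back on the pathway itself. In B cells the same genes keep a low standing level that rises after infection or interferon treatment.

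Promoters are shown for the 5 members with the largest difference between the resistant lines among those found in the promoter table, and for OAS3, which was added after its values were seen because it stayed low in every resistant library. Each runs from 250 bases before to 50 after the start of transcription, 5′ to 3′ on the gene's strand, from RefSeq on GRCh38.p14. Capitals mark matches, on either strand, to GAAA followed by any 2 bases and a second GAAA, here called the GAAA repeat. The windows are chr11:57567886-57568185 for UBE2L6, on the minus strand, and, on the plus strand, chr1:1013247-1013546 for ISG15, chr1:78620198-78620497 for IFI44L, chr1:78649539-78649838 for IFI44, chr11:313790-314089 for IFITM1 and chr12:112938224-112938523 for OAS3.
UBE2L6: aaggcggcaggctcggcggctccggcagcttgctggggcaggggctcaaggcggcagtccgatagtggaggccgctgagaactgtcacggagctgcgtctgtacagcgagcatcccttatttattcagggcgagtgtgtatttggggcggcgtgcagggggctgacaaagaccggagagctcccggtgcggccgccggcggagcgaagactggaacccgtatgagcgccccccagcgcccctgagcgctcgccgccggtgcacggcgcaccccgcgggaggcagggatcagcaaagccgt
ISG15: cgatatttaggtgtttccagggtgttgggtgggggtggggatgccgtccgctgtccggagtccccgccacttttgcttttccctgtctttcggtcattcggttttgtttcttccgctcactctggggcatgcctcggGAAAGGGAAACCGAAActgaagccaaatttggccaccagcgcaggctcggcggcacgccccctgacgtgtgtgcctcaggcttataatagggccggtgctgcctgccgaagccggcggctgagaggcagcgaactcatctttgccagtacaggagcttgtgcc
IFI44L: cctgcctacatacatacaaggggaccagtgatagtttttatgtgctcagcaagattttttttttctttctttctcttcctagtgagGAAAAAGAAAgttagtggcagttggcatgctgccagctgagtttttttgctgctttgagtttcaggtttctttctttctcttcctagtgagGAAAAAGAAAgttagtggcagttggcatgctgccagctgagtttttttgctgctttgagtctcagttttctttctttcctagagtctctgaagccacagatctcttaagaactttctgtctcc
IFI44: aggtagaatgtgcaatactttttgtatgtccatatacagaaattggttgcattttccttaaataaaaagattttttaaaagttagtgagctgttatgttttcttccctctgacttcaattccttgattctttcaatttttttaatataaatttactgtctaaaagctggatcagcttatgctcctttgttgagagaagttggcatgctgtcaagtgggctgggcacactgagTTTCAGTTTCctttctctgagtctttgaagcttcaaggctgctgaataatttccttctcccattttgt
IFITM1: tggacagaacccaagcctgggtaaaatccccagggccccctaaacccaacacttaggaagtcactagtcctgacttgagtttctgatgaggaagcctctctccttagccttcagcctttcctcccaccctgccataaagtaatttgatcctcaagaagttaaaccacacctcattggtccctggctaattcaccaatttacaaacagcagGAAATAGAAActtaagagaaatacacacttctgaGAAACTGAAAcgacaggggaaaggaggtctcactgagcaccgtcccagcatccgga
OAS3: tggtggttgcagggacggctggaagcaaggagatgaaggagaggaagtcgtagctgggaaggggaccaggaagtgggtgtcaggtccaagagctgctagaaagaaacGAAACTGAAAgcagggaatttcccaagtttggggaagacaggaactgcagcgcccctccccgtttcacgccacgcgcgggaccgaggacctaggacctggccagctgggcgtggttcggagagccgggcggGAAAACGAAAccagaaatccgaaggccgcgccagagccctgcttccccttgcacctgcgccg

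The ISG15 promoter held 2 overlapping matches, IFI44L, IFITM1 and OAS3 held 2 each, IFI44 held 1 on the other strand, and UBE2L6 held none. Promoters were found for 36 of the 44 members, DDX58 under its newer symbol RIGI, and not for IRF7, OAS2, OASL, IFIT2, MX2, USP18, IFITM2 and TRIM22. The GAAA repeat was present in 24 of the 36 (66.7%), against 3.65% of 27305 promoters of the same length, taking the first entry of each gene. TTC, any 3 bases and GAA, the letters of the gamma-activated site bound by STAT dimers, were also searched on both strands and were present in 10 of the 36 (27.8%), against 7.88% of all promoters; this motif can overlap the GAAA repeat. The GAAA repeat was not more frequent among the members with a difference between the lines: it was present in 14 of 24 members that were higher in resistant DAUDI cells (58.3%) and in 8 of 10 that did not pass the test (80.0%). Only the first entry of a member was counted. The second entries of RSAD2 and PARP9, both higher in resistant DAUDI cells, held 1 GAAA repeat each, and their first entries held 0. These are matches of letters and describe the windows only.

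The 2 libraries labelled WT were closer to each other (Pearson r = 0.958 across 12337 genes, which are not independent replicates) than either was to a resistant library of its own line (r = 0.698 to 0.717), while resistant libraries of different lines correlated at 0.815 to 0.835. IRF4 read 427 and 357 FPKM and GZMB 451 and 554 FPKM in the DAUDI and DOHH2 libraries labelled WT, against at most 23.5 and 0.155 FPKM in the resistant ones. Whether these 2 libraries come from the parent cultures of the resistant cells is in doubt and cannot be settled here. They are therefore called the libraries labelled WT, and no difference from them can be read as a change on becoming resistant. The files hold no read counts, so depth is unknown, but coverage per FPKM put the ibrutinib-resistant DAUDI library at 1.42 times the depth of the DAUDI library labelled WT and the other 4 at 0.936 to 1.04 times. All 8 B cell markers exceeded 1 FPKM in each of the 6 libraries. Plasmacytoid dendritic cell markers summed to 940 and 1117 FPKM in the libraries labelled WT, against 46.2 to 79.3 in the resistant ones. Most of the sum in the DAUDI and DOHH2 libraries labelled WT was GZMB, SPIB (351 and 427 FPKM) and TCF4 (130 and 124). The rest of the list was low there: IL3RA read 5.77 and 9.69 FPKM, CLEC4C 0.888 and 1.44, LILRA4 0.686 and 0.761, and NRP1 was listed at 0. Myeloid markers summed to 23.8 and 17.4 FPKM in idelalisib- and ibrutinib-resistant DAUDI cells, against 0.059 to 2.22 elsewhere. In these 2 libraries LYZ read 15.0 and 13.0 FPKM, CSF1R 5.73 and 2.20, ITGAM 1.31 and 1.81 and S100A9 1.58 and 0.290, so that 4 and 3 of the 8 myeloid markers reached 1 FPKM, while CD14 and FCGR3A stayed at 0.103 or less and MPO and S100A8 were listed at 0. T and NK cell markers summed to at most 7.64 FPKM, stromal and epithelial markers to at most 1.43 and erythroid markers to at most 7.46. The part of these other markers in the results was not tested, and in bulk RNA fewer cells of a type and less RNA per cell cannot be told apart.

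The members were far higher in resistant DAUDI than in resistant DOHH2 cells. Of the 41, 29 were higher in resistant DAUDI cells (70.7%), where 8.48% of all 12337 genes were, and 1, IFITM2, was higher in resistant DOHH2 cells, where 7.04% of all genes were. The other 11 did not pass the test. Of the 29, 8 were under 1 FPKM in every library outside resistant DAUDI cells (IFI44L, IFI44, IFIT1, IFIT3, CMPK2, RSAD2, XAF1 and IFI27). They were among the 41 only through resistant DAUDI cells, so their direction was tied to that choice. The test was limma on log2(FPKM + 1) over the 4 resistant libraries with terms for line and drug, with a call at p under 0.05 after Benjamini-Hochberg adjustment across the 12337 genes. The median difference, DOHH2 minus DAUDI, was −2.16 over the 41 members and −2.24 over the 34 not listed at 0 in both resistant DOHH2 libraries, against −0.04 over all genes. Both resistant DAUDI libraries lay above both resistant DOHH2 libraries in 36 of 41 members (87.8%), against 39.0% of all genes, and the reverse held in 1 member, against 31.5%.

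The 2 libraries of a line stand in as its repeats. With terms for line and drug, the 1 residual degree of freedom is how far the drug difference differs between the lines. The p-values measure only that spread in these cultures, with limma's borrowing across genes, and not the spread between repeat cultures. Left with 1 DOHH2 library, whichever it was, the fit called 9 members higher in DAUDI, and the same 9 each time (OAS1, OAS2, IFIT2, IFIT3, ISG15, UBE2L6, IFI44, SAMD9L and EPSTI1), beside 284 and 287 of all 12337 genes (2.30% and 2.33%). With no filter on low values it called 0. At an unadjusted p under 0.05, 33 members were then higher in DAUDI and 1 in DOHH2 cells, beside 5211 of 18341 genes in either direction (28.4%).

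The median member stood at 10.1 FPKM in idelalisib-resistant and 17.7 in ibrutinib-resistant DAUDI cells, at 0.288 and 0.339 in the DOHH2 cultures resistant to the same drugs, and at 5.47 and 6.44 in the DAUDI and DOHH2 libraries labelled WT. The libraries labelled WT thus lay between the resistant lines. None of the 41 members was listed at 0 in a resistant DAUDI library, whereas 11 were in idelalisib-resistant and 9 in ibrutinib-resistant DOHH2 cells. Listed at 0 in both resistant DOHH2 libraries were 7 members (17.1%), IFIH1, CMPK2, IFIT2, IFIT5, PARP9, DTX3L and HERC6, against 5.76% of all genes. For these 7 no difference between the lines is given.

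**Figure D1:**
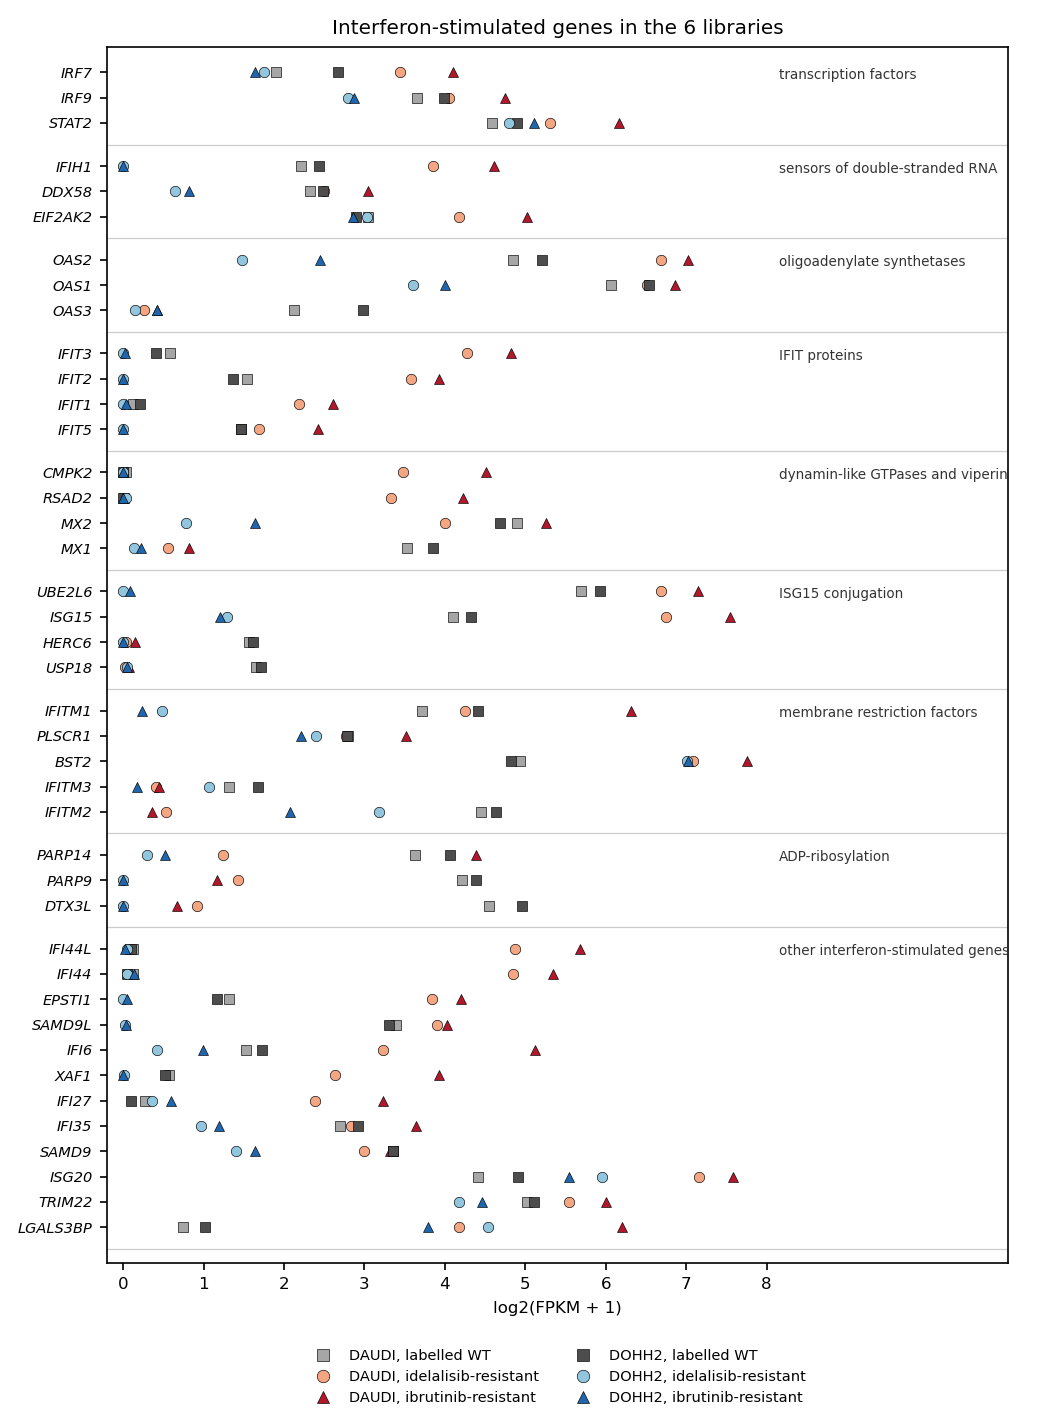
Level of the 41 members at 1 FPKM or more in any library, as log2(FPKM + 1), grouped by role, with 1 point per library (squares labelled WT, circles idelalisib-resistant, triangles ibrutinib-resistant; grey WT, red DAUDI, blue DOHH2). In 36 of 41 rows both red points lie to the right of both blue points, and grey squares of the 2 lines lie close together.

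Among the factors that carry the interferon signal to DNA, IRF7 and IRF9 were higher in resistant DAUDI cells and STAT2 did not pass the test. IRF7, which amplifies interferon production, stood at 9.88 and 16.2 FPKM in idelalisib- and ibrutinib-resistant DAUDI cells, at 2.36 and 2.11 in the DOHH2 cells, and at 2.75 and 5.40 in the DAUDI and DOHH2 libraries labelled WT. The difference of 2.08 ± 0.29 (SE, log2 scale, DAUDI minus DOHH2) passed the test (limma adjusted p = 0.0421), with both DAUDI values above every other library. IRF9, the DNA-binding subunit of the interferon-activated complex, read 15.6 and 25.8 FPKM in DAUDI and 5.95 and 6.29 in DOHH2 cells, with 11.6 and 14.9 in the libraries labelled WT. Its difference was 1.57 ± 0.24 (limma adjusted p = 0.0488). STAT2, its partner, read 38.5 and 70.5 FPKM in DAUDI, 26.9 and 33.6 in DOHH2 and 23.0 and 28.9 in the libraries labelled WT, a difference of 0.77 ± 0.20 that did not pass (limma adjusted p = 0.104). From here on, paired values are in the order idelalisib-resistant, ibrutinib-resistant, or, for the libraries labelled WT, DAUDI, DOHH2, and differences between lines are DAUDI minus DOHH2 on the log2(FPKM + 1) scale with the limma SE and adjusted p.

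Of the sensors of double-stranded RNA, IFIH1 and DDX58 were higher in resistant DAUDI cells, EIF2AK2 did not pass, and DDX60 was below 1 FPKM. IFIH1 encodes MDA5, a receptor for long double-stranded RNA, and read 13.5 and 23.5 FPKM in DAUDI cells while it was listed at 0 in both resistant DOHH2 libraries (adjusted p = 0.0143). The libraries labelled WT held 3.63 and 4.39 FPKM of it, so the resistant libraries lay on either side of them. DDX58 encodes RIG-I, which binds short RNA with a 5′ triphosphate, and read 4.63 and 7.26 FPKM in DAUDI against 0.567 and 0.770 in DOHH2 cells, a difference of 2.03 ± 0.18 (adjusted p = 0.0214). EIF2AK2, the kinase PKR that halts translation, read 17.1 and 31.4 FPKM in DAUDI and 7.15 and 6.22 in DOHH2 cells, the latter close to the 7.27 and 6.44 of the libraries labelled WT. Its difference of 1.66 ± 0.33 missed the threshold (adjusted p = 0.0724), although the 2 lines did not overlap.

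The oligoadenylate synthetases OAS1, OAS2 and OAS3 make the messenger that activates RNase L. With OASL, the 4 genes of this family did not move as 1 group. OAS1 and OAS2 were among the most abundant members. OAS2 read 102 and 129 FPKM in resistant DAUDI cells, 1.78 and 4.43 in resistant DOHH2 cells, and 27.7 and 36.0 in the libraries labelled WT, a difference of 4.90 ± 0.23 (adjusted p = 0.0119). OAS1 read 90.6 and 116 FPKM in DAUDI and 11.2 and 15.0 in DOHH2 cells, with 65.9 and 91.9 in the libraries labelled WT, a difference of 2.89 ± 0.12 (adjusted p = 0.0119). OAS3 was low in all 4 resistant libraries, at 0.194 and 0.344 FPKM in DAUDI and 0.106 and 0.339 in DOHH2 cells, against 3.35 and 6.88 in the libraries labelled WT. The lines overlapped at OAS3 (difference 0.06 ± 0.05, adjusted p = 0.482). OASL stayed at or below 0.314 FPKM in every library.

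OAS1 also differed in its isoforms. The isoform of 1663 nt made up 99.2% and 99.5% of OAS1 FPKM in resistant DAUDI cells, against 31.8% and 44.7% in resistant DOHH2 cells and 24.4% and 25.1% in the libraries labelled WT. The 1470-nt isoform held 50.05% of OAS1 in the DAUDI library labelled WT, 0.827% and 0.474% in the resistant DAUDI libraries, and held 33.9% and 27.5% in resistant DOHH2 cells. The 1565-nt isoform, 25.5% in the DAUDI library labelled WT, was close to 0% in both resistant DAUDI libraries and held 34.3% and 27.8% in the DOHH2 ones. These shares are the isoform estimates of the deposited tables and had no test. OAS2, by contrast, kept each of its 3 isoforms between 13.2% and 44.6% in all 6 libraries.

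**Figure D2:**
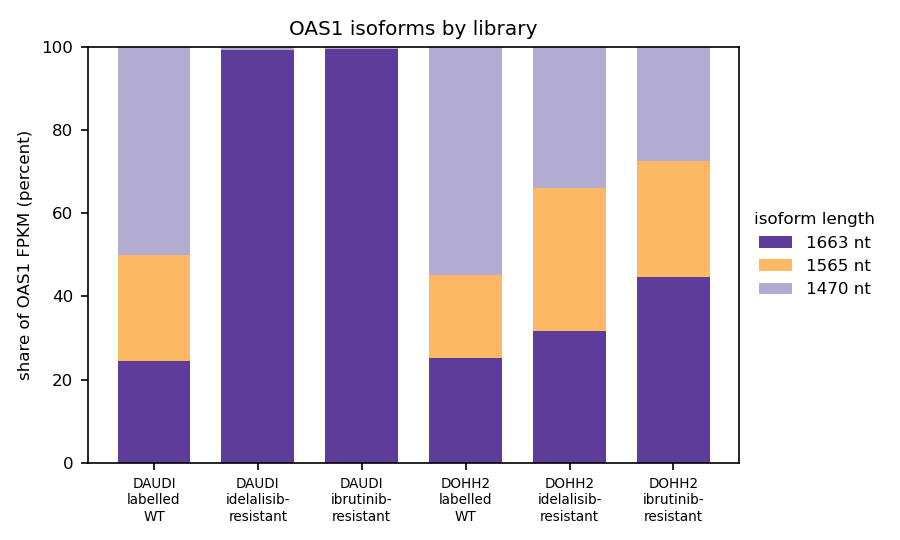
Share of summed OAS1 FPKM (percent, stacked bars) held by each of 3 isoforms, named by transcript length, in each of the 6 libraries. The 1663-nt isoform holds 99.2% and 99.5% in the resistant DAUDI libraries and 24.4% to 44.7% in the other 4.

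All 4 IFIT genes, whose products bind foreign RNA, were higher in resistant DAUDI cells. IFIT3 read 18.4 and 27.3 FPKM there, against 0 and 0.013 in resistant DOHH2 cells and 0.50 and 0.33 in the libraries labelled WT, a difference between the resistant lines of 4.54 ± 0.23 (adjusted p = 0.0119). IFIT1 followed at a lower level, with 3.56 and 5.08 FPKM against 0 and 0.021 and a difference of 2.38 ± 0.15 (adjusted p = 0.0136). IFIT2 read 10.9 and 14.2 FPKM in DAUDI cells and IFIT5 2.23 and 4.38, and both were listed at 0 in the 2 resistant DOHH2 libraries (adjusted p = 0.0119 and 0.0308). In the libraries labelled WT, IFIT2 stood at 1.92 and 1.57 FPKM and IFIT5 at 1.76 and 1.77. The 4 genes of this family therefore had the same order of groups, with the resistant DOHH2 libraries lowest.

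The next group holds the 2 MX genes, dynamin-like GTPases that trap viral capsids, with RSAD2, which encodes viperin, and CMPK2, a mitochondrial nucleotide kinase. RSAD2 was all but silent outside resistant DAUDI cells: it read 9.08 and 17.7 FPKM there, 0.026 and 0 in resistant DOHH2 cells, and 0.0084 and 0 in the libraries labelled WT, a difference of 3.76 ± 0.31 (adjusted p = 0.0199). CMPK2 read 10.1 and 21.8 FPKM in resistant DAUDI cells and was listed at 0 in all 3 DOHH2 libraries (adjusted p = 0.0207), with 0.027 in the DAUDI library labelled WT. Of the CMPK2 FPKM in resistant DAUDI cells, 72.5% and 77.2% was assigned to a non-coding isoform of 2426 nt. MX2 and MX1 parted ways. MX2 read 15.0 and 37.3 FPKM in DAUDI and 0.726 and 2.12 in DOHH2 cells, with 28.8 and 24.7 in the libraries labelled WT, a difference of 3.42 ± 0.21 (adjusted p = 0.0135). MX1, a gene often used as a readout of interferon, was lower in every resistant library: it read 10.5 and 13.4 FPKM in the libraries labelled WT, 0.471 and 0.763 in resistant DAUDI and 0.098 and 0.171 in resistant DOHH2 cells. Its difference between the resistant lines was small, 0.51 ± 0.07, and passed the test (adjusted p = 0.0410).

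ISG15 and UBE2L6 had the 2 largest differences between the resistant lines. ISG15, a ubiquitin-like modifier, read 106 and 185 FPKM in resistant DAUDI cells, 1.45 and 1.31 in resistant DOHH2 cells and 16.2 and 19.1 in the libraries labelled WT, a difference of 5.89 ± 0.29 (adjusted p = 0.0119). UBE2L6, the conjugating enzyme that hands ISG15 on, read 102 and 141 FPKM against 0 and 0.057, with 50.6 and 59.7 in the libraries labelled WT, a difference of 6.88 ± 0.19 (adjusted p = 0.0119). For both genes, every resistant DAUDI value was above and every resistant DOHH2 value below both libraries labelled WT. The other genes of the ISG15 cycle did not follow. USP18, the protease that removes ISG15 and damps the receptor, read 2.14 and 2.28 FPKM in the libraries labelled WT and at most 0.054 in the 4 resistant libraries, with no difference detected between the lines (0.0028 ± 0.0355, adjusted p = 0.972). HERC6, a ligase of the same family as the ISG15 ligase HERC5, read 1.95 and 2.07 FPKM in the libraries labelled WT, 0.025 and 0.111 in resistant DAUDI cells and 0 in both resistant DOHH2 libraries (adjusted p = 0.266). HERC5 itself was at or below 0.0086 FPKM in all 6 libraries.

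**Figure D3:**
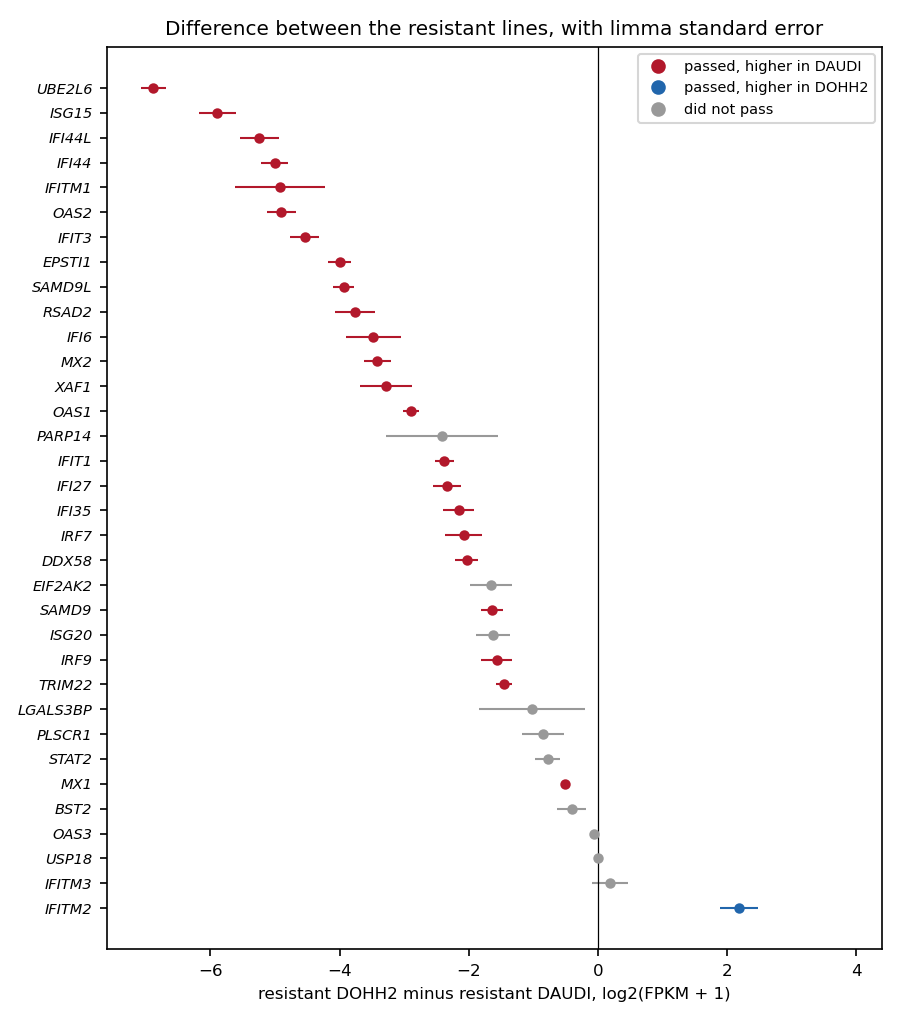
Difference between the resistant lines for the 34 members not listed at 0 in both resistant DOHH2 libraries, as DOHH2 minus DAUDI on the log2(FPKM + 1) scale (points) with the limma standard error (bars). Values run from −6.88 for UBE2L6 to 2.18 for IFITM2, the only blue point.

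Among the restriction factors of membranes, the 3 IFITM genes, which hinder viral fusion, went different ways. IFITM1 read 18.0 and 78.4 FPKM in resistant DAUDI and 0.398 and 0.175 in resistant DOHH2 cells, with 12.1 and 20.3 in the libraries labelled WT, a difference of 4.92 ± 0.70 (adjusted p = 0.0443). IFITM2 was the 1 member higher in resistant DOHH2 cells, with 8.09 and 3.20 FPKM against 0.452 and 0.278 in DAUDI, a difference of −2.18 ± 0.30 (adjusted p = 0.0417). All 4 values were below the 20.8 and 23.9 FPKM of the libraries labelled WT, and the call was lost without either DAUDI library (adjusted p = 0.143 and 0.171), without the trend in limma's variance (0.0631), at a pseudocount of 5 FPKM (0.0718) and with no filter (0.117). IFITM3 read 0.332 and 0.366 FPKM in DAUDI and 1.10 and 0.126 in DOHH2 cells, which overlap (−0.19 ± 0.28, adjusted p = 0.668). The IFITM genes are close paralogs, so how reads were split among them is uncertain. BST2, or tetherin, which holds budding virions at the cell surface, was high in all 4 resistant libraries, at 135 and 215 FPKM in DAUDI and 128 and 129 in DOHH2 cells against 29.6 and 27.2 in the libraries labelled WT (difference between lines 0.40 ± 0.22, adjusted p = 0.297). PLSCR1, a scramblase-family protein, read 5.85 and 10.5 FPKM in DAUDI, 4.26 and 3.64 in DOHH2 and 5.95 and 5.90 in the libraries labelled WT (0.84 ± 0.32, adjusted p = 0.186).

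The 3 genes of ADP-ribosylation lie on chromosome 3, and 2 of them were low in every resistant library. PARP9 read 17.6 and 19.9 FPKM in the libraries labelled WT, 1.69 and 1.24 in resistant DAUDI cells and 0 in both resistant DOHH2 libraries (adjusted p = 0.0170). DTX3L, the ubiquitin ligase that works with PARP9, read 22.4 and 30.0, then 0.895 and 0.590, then 0 and 0 FPKM (adjusted p = 0.0296). The pair was thus called higher in DAUDI cells although it stood far below the libraries labelled WT in both lines. PARP14 alone differed by drug: it read 1.37 FPKM in idelalisib-resistant and 20.0 in ibrutinib-resistant DAUDI cells, against 0.229 and 0.430 in DOHH2 cells and 11.4 and 15.7 in the libraries labelled WT. With that spread within DAUDI its difference between the lines, 2.41 ± 0.86, did not pass (adjusted p = 0.170).

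Of the other 12 members, 10 were higher in resistant DAUDI cells and 2, ISG20 and LGALS3BP, did not pass. IFI44L and IFI44, neighbouring paralogs, showed the plainest on and off pattern. IFI44L read 28.3 and 50.5 FPKM in resistant DAUDI cells and 0.021 to 0.092 in the other 4 libraries, a difference of 5.24 ± 0.30 (adjusted p = 0.0128). IFI44 read 27.8 and 39.8 FPKM against 0.038 to 0.099 in the other 4, a difference of 5.0 ± 0.21 (adjusted p = 0.0119). Neither gene was appreciably expressed in the libraries labelled WT, unlike most members.

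EPSTI1, SAMD9L, IFI6, XAF1 and IFI27 were near 0 or under 1 FPKM in resistant DOHH2 cells as well. EPSTI1, epithelial-stromal interaction protein 1, read 13.3 and 17.5 FPKM in DAUDI against 0 and 0.030 (4.0 ± 0.18, adjusted p = 0.0119). SAMD9L, an antiviral factor that halts translation, read 14.0 and 15.3 FPKM against 0.012 and 0.025 (3.94 ± 0.16, adjusted p = 0.0119), and its neighbour SAMD9 read 7.0 and 8.98 against 1.65 and 2.12 (1.64 ± 0.17, adjusted p = 0.0284). Both SAMD9 genes stood at 8.85 to 9.49 FPKM in the libraries labelled WT, nearer to the resistant DAUDI than to the resistant DOHH2 values. IFI6, a mitochondrial and endoplasmic reticulum protein that protects from cell death, read 8.41 and 33.9 FPKM against 0.340 and 0.986 (3.47 ± 0.42, adjusted p = 0.0352). XAF1, which opposes the inhibitor of apoptosis XIAP, read 5.23 and 14.2 FPKM against 0.0090 and 0 (3.28 ± 0.40, adjusted p = 0.0353). IFI27 read 4.25 and 8.38 FPKM against 0.288 and 0.505 (2.33 ± 0.22, adjusted p = 0.0243).

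IFI35 and TRIM22 moved less. IFI35 read 6.14 and 11.4 FPKM in DAUDI and 0.961 and 1.28 in DOHH2 cells (2.16 ± 0.24, adjusted p = 0.0300). TRIM22, a ubiquitin ligase that restricts retroviruses, read 45.6 and 63.2 against 17.1 and 21.1 (1.45 ± 0.13, adjusted p = 0.0222). ISG20, an exonuclease, was above the libraries labelled WT (20.3 and 29.0 FPKM) in all 4 resistant libraries, at 142 and 191 in DAUDI and 61.1 and 45.6 in DOHH2 cells (1.62 ± 0.27, adjusted p = 0.0553). LGALS3BP, a secreted galectin-binding glycoprotein, was also above them everywhere, at 17.0 and 72.3 FPKM in DAUDI and 22.3 and 12.9 in DOHH2 cells against 0.680 and 1.02 (1.02 ± 0.82, adjusted p = 0.444). With OAS1, TRIM22, STAT2 and BST2, these made up the 6 members at 10 FPKM or more in both resistant DOHH2 libraries.

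The question of opposite change was put against the library labelled WT of each line. With 1 library a side there is no test, and a difference of 1 or more on the log2(FPKM + 1) scale is counted. Against the DAUDI library labelled WT, 20 members were higher and 8 lower in idelalisib-resistant cells (15.3% and 15.8% of all genes), and 23 were higher and 7 lower in ibrutinib-resistant cells (20.2% and 14.6%). Against the DOHH2 library labelled WT, 3 were higher and 24 lower in idelalisib-resistant cells (16.0% and 15.7%), and 2 higher and 25 lower in ibrutinib-resistant cells (14.9% and 15.7%). Both drugs of a line share 1 library labelled WT, so their agreement is not independent. All of these counts rest on the libraries labelled WT, whose origin is in doubt. The 20 and 23 higher members include the 8 that reached 1 FPKM only in resistant DAUDI cells, whose direction was tied to that choice. Between the 2 libraries labelled WT no member differed by 1 or more (0.608% of all genes were that much higher in DOHH2 and 0.486% lower), and the members' median difference was 0.17.

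In 6 members (14.6%) both resistant DAUDI libraries were higher and both resistant DOHH2 libraries lower than the library labelled WT of their line, against 0.624% of all genes, with the same limit. They were UBE2L6, ISG15, OAS2, IFIH1, EPSTI1 and IFIT2, chosen by this count after their values were seen. ISG15 differed from its library labelled WT by 2.64 and 3.43 in DAUDI and by −3.04 and −3.12 in DOHH2 cells. OAS2 differed by 1.85 and 2.18 in DAUDI and by −3.74 and −2.77 in DOHH2 cells. UBE2L6 had unequal sides, with 1.0 and 1.46 in DAUDI and −5.92 and −5.84 in DOHH2 cells. The count depends on the added pseudocount, with 11 members at 0.1 FPKM and 2 at 5 FPKM. The share of all genes at these 2 pseudocounts was not counted.

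Another 12 members (29.3%, against 6.14% of all genes) were higher in both resistant DAUDI libraries and neither higher nor lower by 1 in both DOHH2 ones. Of these, 8 (IFI44L, IFI44, IFIT1, IFIT3, CMPK2, RSAD2, XAF1 and IFI27) were under 1 FPKM in the DOHH2 library labelled WT. From that level a fall of 1 on this scale cannot be seen. The same 8 reached 1 FPKM only in resistant DAUDI cells, so their rise there was tied to the choice of the 41. In 10 members (24.4%, against 5.24% of all genes) only the DOHH2 side passed the size in both of its libraries: OAS1, MX2, IFITM1, SAMD9L, SAMD9, PARP14, IFI35, IFIT5, DDX58 and IRF9 were lower in both resistant DOHH2 libraries and neither higher nor lower by 1 in both DAUDI ones. A single DAUDI library passed for IFITM1 (2.595) and IRF9 (1.09), both ibrutinib-resistant, and for PARP14 (−2.38, idelalisib-resistant). Lower in all 4 resistant libraries were 7 members (17.1%, against 8.75% of all genes), namely PARP9, DTX3L, MX1, HERC6, OAS3, USP18 and IFITM2. Of the 41, 2 were higher in all 4, LGALS3BP and BST2 (4.88%, against 6.91% of all genes). TRIM22, PLSCR1, STAT2 and IFITM3 met none of these conditions.

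Members that lie next to each other on a chromosome did not always share a pattern. On hg19, 23 members fell into 9 groups with gaps of at most 200000 nt. On chromosome 12, OAS1 (113344739 to 113357712), OAS3 (113376249 to 113411054) and OAS2 (113416274 to 113449528) lie in that order, and the middle gene was at most 0.344 FPKM in resistant DAUDI cells while its neighbours were at 90.6 FPKM or more. The gap between OAS3 and OAS2 is 5219 nt. On chromosome 21, MX2 and MX1 lie 11615 nt apart and read 37.3 and 0.763 FPKM in the same ibrutinib-resistant DAUDI library. On chromosome 11, IFITM1 lies between IFITM2 and IFITM3, with 4580 and 4400 nt on its sides, and was the only 1 of the 3 at 1 FPKM or more in resistant DAUDI cells.

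Other neighbours moved alike. IFI44L and IFI44, 3646 nt apart on chromosome 1, and CMPK2 and RSAD2, 11029 nt apart on chromosome 2, were high only in the resistant DAUDI libraries among the 6. The 4 IFIT genes on chromosome 10 span IFIT2 to IFIT5 (91061706 to 91180759) and had the same order of groups. PARP9 and DTX3L overlap on hg19, and whether the authors' counting used strand is not given in the sources used here, so reads from the overlap cannot be told apart. PARP14, 105622 nt beyond DTX3L, was at 20.0 FPKM in ibrutinib-resistant DAUDI cells, where PARP9 and DTX3L read 1.24 and 0.590.

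**Figure D4:**
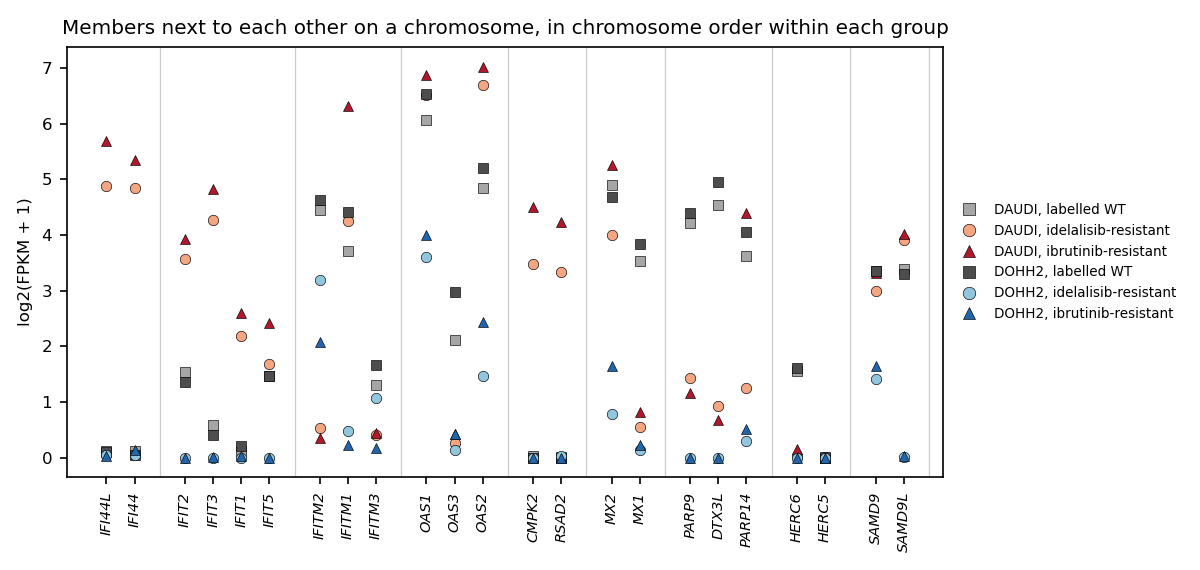
Level of the 23 members that lie within 200000 nt of another member on hg19, as log2(FPKM + 1), in chromosome order within each of 9 groups, 1 point per library. OAS3, MX1, IFITM2 and IFITM3 sit low in the resistant DAUDI libraries (red) beside neighbours that sit high.

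Within DAUDI, the ibrutinib-resistant library had more of most members than the idelalisib-resistant one. It was above in 38 of 41 members (92.7%), where 70.0% of all genes were, and the median difference was 0.55 over the members and 0.14 over all genes. Rescaled by the median of ratios between libraries, the medians were 0.40 and 0.01 and the count was 36 of 41. The matching share of all genes after rescaling was not counted. Among the 34 members at 1 FPKM or more in idelalisib-resistant cells the median ratio of FPKM, ibrutinib to idelalisib, was 1.69, against 1.14 over 10439 genes chosen the same way, and 1.5 against 1.01 after rescaling. The ratio was above 1 in 33 of the 34, all but PARP9, against 7445 of the 10439 genes. The ibrutinib-resistant library was also the deeper of the pair (1.42 against 1.04 on the relative scale above), and myeloid markers summed to 17.4 FPKM in it and 23.8 in the other; their part in the result was not tested.

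A difference of 1 or more was seen in 7 members, all higher in ibrutinib-resistant cells (17.1%, against 2.20% of all genes), and in 0 members the other way (1.31%). PARP14 differed by 3.15, from 1.37 to 20.0 FPKM. IFITM1 differed by 2.06 and LGALS3BP by 2.02. IFI6 read 8.41 and 33.9 FPKM, a difference of 1.89, and the remaining 3 were XAF1 with 1.29, MX2 with 1.26 and CMPK2 with 1.03. Differences under 1 were those of ISG15 by 0.79, UBE2L6 by 0.46, OAS1 by 0.35 and OAS2 by 0.33, among others. PARP9, DTX3L and IFITM2 were the 3 members lower in the ibrutinib-resistant library, with differences of −0.26, −0.25 and −0.18. These are differences between 2 libraries and have no replicate check.

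Within DOHH2 the drugs hardly separated the members on the log2(FPKM + 1) scale. Most members were under 1 FPKM there, with medians of 0.288 and 0.339, and this scale shrinks differences at such levels. At a pseudocount of 0.1 FPKM more members differed by 1 or more, as given below. The 7 members listed at 0 in both libraries (17.1%, against 5.76% of all genes) count as not above. The ibrutinib-resistant library was above in 22 of 41 (53.7%, against 39.3% of all genes), with a median difference of 0.01 against −0.02 over all genes. No member was higher by 1 or more (0.665% of all genes) and 1 was lower (0.413%), IFITM2, with −1.11. OAS2 (0.97) and MX2 (0.85) came nearest to that size on the higher side. Over both lines together, limma called no member and no gene different between the drugs (0.00%); at an unadjusted p under 0.05 there were 212 genes and 2 members, MX2 (1.06 ± 0.21, adjusted p = 1) and OAS3 (0.22 ± 0.05, adjusted p = 1). Whether the drug difference itself differs between the lines was not tested, since each drug has 1 library per line. That difference is the spread against which the lines were tested.

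**Figure D5:**
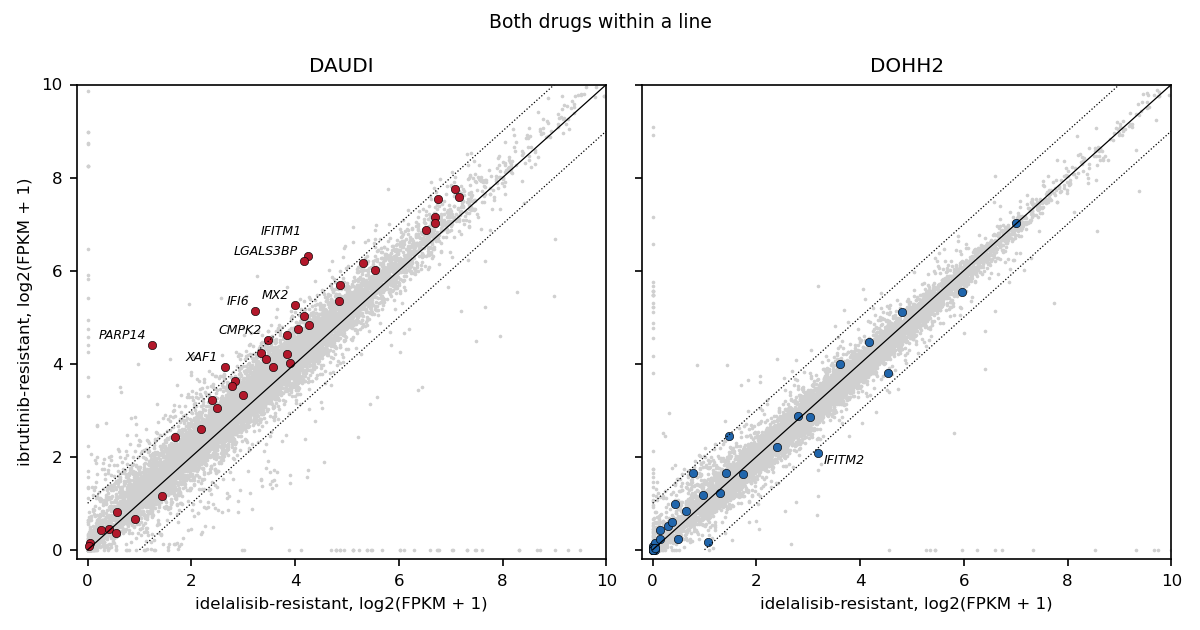
Ibrutinib-resistant against idelalisib-resistant library, both as log2(FPKM + 1), in DAUDI (left) and DOHH2 (right), with members as coloured points, all 12337 genes as grey points, equality as a solid line and a difference of 1 as dotted lines. In DAUDI, 38 of 41 members lie above the solid line and 7 named ones above the upper dotted line. In DOHH2, IFITM2 alone among the members lies outside the dotted lines.

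The rest of the pathway was read from gene lists. No interferon gene reached 1 FPKM in any library: of 21 ligands listed, 18 were read and 3, the lambda interferons, are not analysed here. The highest was IFNB1, at 0.18 and 0.26 FPKM in resistant DAUDI cells, 0 in both resistant DOHH2 libraries and 0 and 0.05 in those labelled WT. IFNW1 reached 0.015 and IFNG 0.027 FPKM at most, and the other 15, the 13 alpha interferons with IFNE and IFNK, were listed at 0 throughout. Of 5 receptor genes tested, 0 were higher in resistant DAUDI cells (8.48% of all genes) and 1 in DOHH2 cells (7.04%): IFNAR2, at 46.4 and 46.8 FPKM against 19.4 and 23.9 in DAUDI, a difference of −1.08 ± 0.14 (adjusted p = 0.0409). IFNAR1 (adjusted p = 0.898), IFNGR1 (0.536), IFNGR2 (0.489) and IL10RB (0.927) did not pass, and the lambda receptor chain is not analysed here. Both chains of the type I receptor were present in both lines, IFNAR1 at 13.2 to 16.5 FPKM in the resistant libraries.

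Among the JAK, STAT and IRF genes, IRF4 and IRF5 were higher in resistant DAUDI cells, and JAK2, STAT5A and STAT5B were higher in resistant DOHH2 cells. IRF4, a plasma cell and germinal centre exit factor, read 7.06 and 23.5 against 0.304 and 0.339 (3.41 ± 0.48, adjusted p = 0.0445), and IRF5 14.9 and 13.4 against 4.96 and 4.92 (1.35 ± 0.17, adjusted p = 0.0368). STAT5A read 1.03 and 1.24 FPKM in DAUDI against 11.7 and 13.5 in DOHH2 cells (−2.67 ± 0.17, adjusted p = 0.0143), STAT5B 26.8 and 28.6 against 50.4 and 62.5 (−0.99 ± 0.13, adjusted p = 0.0403), and JAK2 0.120 and 0.157 against 1.14 and 1.59 (−1.05 ± 0.09, adjusted p = 0.0214).

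Both kinases of the type I receptor did not pass. JAK1 read 50.9 and 71.5 FPKM in DAUDI and 35.1 and 30.8 in DOHH2 cells (adjusted p = 0.110), and TYK2 14.5 and 16.6 against 17.5 and 17.7 (adjusted p = 0.476). IRF1, an early target of interferon, read 9.36 and 16.3 against 2.38 and 1.99 FPKM and just missed (2.07 ± 0.32, adjusted p = 0.0505). STAT3 (adjusted p = 0.636), IRF2 (0.50), IRF3 (0.883) and IRF8 (0.270) did not pass either, and STAT4 was at or below 0.111 FPKM in every library.

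Among 17 sensors and adaptors that act before interferon is made, 3 were higher in resistant DAUDI cells (17.6%, against 8.48% of all genes) and 14 did not pass, with a median difference, DOHH2 minus DAUDI, of −0.23. ZBP1, a sensor of left-handed nucleic acid, read 3.87 and 7.52 FPKM in DAUDI against 0.144 and 0.080 in DOHH2 cells (2.53 ± 0.28, adjusted p = 0.0307). TLR3 read 0.943 and 1.26 against 0.171 and 0.094 (0.89 ± 0.11, adjusted p = 0.0353), and the third was DHX58 (0.56 ± 0.07, adjusted p = 0.0354). ZBP1 and TLR3 reached 1 FPKM only in resistant DAUDI cells. IKBKE (adjusted p = 0.0551) and AIM2 (0.0537) missed the threshold. Of 15 brakes on interferon signalling, 1 was called (6.67%, against 8.48% of all genes). SOCS1, which blocks JAK kinases, was higher in resistant DAUDI cells, at 6.02 and 8.77 FPKM against 0.293 and 0.240 (2.71 ± 0.21, adjusted p = 0.0177). The list's median was −0.18, and PTPN6 (adjusted p = 0.0612), ADAR (0.0569) and SAMHD1 (0.113) did not pass.

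Of 34 further interferon-stimulated genes outside the 44, 20 were higher in resistant DAUDI cells (58.8%, against 8.48% of all genes), 0 in DOHH2 cells, and 14 did not pass, with a median of −1.79. Both resistant DAUDI libraries lay above both resistant DOHH2 libraries in 31 of the 34, against 39.0% of all genes, and the reverse held in 2, against 31.5%. SP140, a nuclear body protein of immune cells, read 26.4 and 29.1 FPKM against 0.634 and 0.445 (4.22 ± 0.20, adjusted p = 0.0119). TMEM140 (3.47 ± 0.26, adjusted p = 0.0172), C19orf66 (3.40 ± 0.16, adjusted p = 0.0119) and APOL3 (3.34 ± 0.17, adjusted p = 0.0119) followed. APOL3 reached 1 FPKM only in resistant DAUDI cells. Of 11 genes known best from interferon gamma, 7 were higher in resistant DAUDI cells (63.6%, against the same 8.48%) and 4 did not pass, with a median of −1.5. GBP2, GBP3 and GBP4 of this list reached 1 FPKM only in resistant DAUDI cells, so their direction was tied to that choice. GBP3 was among the 7, while GBP2 and GBP4 did not pass. PSMB9, a subunit of the immunoproteasome, read 81.6 and 106 FPKM against 0.675 and 1.49 (5.52 ± 0.16, adjusted p = 0.0119), and PSMB8, another, 117 and 126 against 21.9 and 36.8 (2.06 ± 0.21, adjusted p = 0.0272). TAP1, which carries peptides for antigen presentation, read 49.9 and 61.1 against 6.09 and 9.07 (2.74 ± 0.14, adjusted p = 0.0120), and CXCL10 4.86 and 7.07 FPKM while it was listed at 0 in both resistant DOHH2 libraries (adjusted p = 0.0137). The 0 called higher in DOHH2 cells in these 2 lists stands beside 7.04% of all genes. As for the members, fewer genes of these lists passed with 1 DOHH2 library in the fit, and fewer of all genes did. The further genes and the interferon gamma genes kept only part of their calls. The DAUDI-side calls among the sensors and the brakes, and those of IRF4 and IRF5, were lost. The call of IFNAR2 was also lost with 1 DOHH2 library (adjusted p = 0.132 and 0.137), that of JAK2 with 1 DAUDI library (0.0721 and 0.0762) and that of STAT5B without any 1 of the 4 (0.0821 to 0.12). STAT5A passed each time.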

How the data were processed

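PolyA RNA of 6 cultures, 1 library each, was measured. The kit was a directional mRNA kit, per the labels' protocols. Per the submitters' processing notes, the authors used bcl2fastq, cutadapt, TopHat2 and Cufflinks with hg19 (versions not given in the sources used here). Deposited tables give FPKM and coverage for each of 43490 isoforms per library, per the file headers; the coverage signal served only for relative depth. FPKM is relative to each library's total, so a few abundant genes can shift all others.

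Isoform FPKM was summed by gene name, leaving out 528 isoforms without a name and 10 genes with a failed estimate (0 members). Genes at 1 FPKM or more in any library were tested with limma 3.58.1 in R 4.3.3 on log2(FPKM + 1), which understates changes of low genes, over the 4 resistant libraries with terms for line and drug and a mean-variance trend (residual df 1, median prior df 1.93). Single-library comparisons had no test. The script was tested on simulated data.

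The rule allowed naming all 44 members, any ligand, receptor or JAK, STAT or IRF gene, and of each other list up to 4 genes with the largest difference between the resistant lines; other names were added after values were seen. One item of these lists is not reported here. Members, lists and tests were chosen with earlier results of these data known. Alternatives were pseudocounts of 0.1 and 5 FPKM, other filters, scalings and models, and leaving out each resistant library.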

Additional observations from a re-analysis of the deposited data

Results flagged for a closer look

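The difference between the drugs had opposite signs in the 2 lines in 11 of 41 members (26.8%), and in 2 of them it reached 1 or more in 1 line and at least 0.1 the other way in the other. Over all genes, ibrutinib was above idelalisib in 70.0% in DAUDI and 39.3% in DOHH2 cells. The share of all genes with opposite signs was not counted, so neither count can be read as a trait of the members. IFITM1 was higher in the ibrutinib-resistant than in the idelalisib-resistant DAUDI library by 2.06 on the log2(FPKM + 1) scale, and lower in the ibrutinib-resistant DOHH2 library by −0.25, where both values were under 0.4 FPKM. LGALS3BP differed by 2.02 in DAUDI and by −0.74 in DOHH2 cells. Against the library labelled WT of each line, 6 members were higher by 1 or more in both resistant DAUDI libraries and lower by 1 or more in both resistant DOHH2 libraries (UBE2L6, ISG15, OAS2, IFIH1, EPSTI1 and IFIT2). Whether the libraries labelled WT are the parents of the resistant cells is in doubt. None of these differences between the drugs or from the libraries labelled WT was tested, since each comparison has 1 library a side. The difference between the resistant lines was tested as given above. No group had 4 samples, so no search for an outlying sample was possible.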

How the results depend on the processing

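The count of members higher in resistant DAUDI cells, 29 as reported, was 21 to 31 under 8 other settings, 0 with no filter on low values, and 9 to 32 when 1 library was left out (line term only, the lone library taken to vary like the others). The 1 member higher in DOHH2 cells became 0 at a pseudocount of 5 FPKM, with no filter and without the trend, and 0 to 2 on leaving 1 library out. Over all genes, 1046 were higher in DAUDI cells, 0 with no filter, 1752 with no drug term, 2593 with all 6 libraries in 3 groups, 688 without the trend and 284 to 1945 on leaving 1 library out (284 and 287 without a DOHH2 library); 868 were higher in DOHH2 cells, 0 with no filter, 1610 with no drug term, 2224 with all 6 libraries and 455 to 1042 on leaving 1 out (491 and 455 without a DOHH2 library). With no filter, 18341 genes were tested and 5211 had an unadjusted p under 0.05. The drug over both lines called 1 gene rather than 0 when genes had to reach 5 FPKM.

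At a pseudocount of 0.1 FPKM, members differing by 1 or more between the drugs in DOHH2 cells were 4 higher and 2 lower, 1 member was higher in the DOHH2 than in the DAUDI library labelled WT, and 11 members had opposite changes. At 5 FPKM, 0 were lower between the drugs in DOHH2 cells, 2 had opposite changes, and against the library labelled WT 13 were higher and 5 lower in idelalisib-resistant DAUDI, 4 lower in ibrutinib-resistant DAUDI, and 14 and 14 lower in idelalisib- and ibrutinib-resistant DOHH2 cells. The shares of all genes at these pseudocounts were not counted, so these counts cannot be read as a trait of the members.

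Direction, DOHH2 minus DAUDI, turned for 3 members that had not passed the test. OAS3 was 0.027 without ibrutinib-resistant DAUDI and 0.079 without idelalisib-resistant DOHH2 cells. USP18 was 0.00024 and 0.00064 after rescaling by the median of ratios and the upper quartile, and 0.024 without ibrutinib-resistant DAUDI cells. IFITM3 was −0.26 without idelalisib-resistant DOHH2 cells. So did 5 pathway genes that had not passed: without idelalisib-resistant DAUDI cells IFNAR1 was −0.10, IFNGR2 −0.0057, IL10RB −0.22, STAT3 −0.13 and IRF3 −0.063, and without idelalisib-resistant DOHH2 cells IFNAR1 was −0.063 and IL10RB −0.21. The called members kept their direction in each of the 13 alternatives that tested them (IFIT5 never reached 5 FPKM), and 8 of the 29 passed in all 12 that kept a filter. The cause was not tested. With no filter, no list kept a call. No paired analysis was possible because the labels give no replicate numbers; the drug term takes the place of a pair. Depth is unknown, so a gene listed at 0 has no upper limit here.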
